A study of Danio rerio with 10 samples.

Results

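The genes described here encode the machinery that copies DNA in S phase. They were chosen by name, as every gene of the count table whose Ensembl 96 symbol belongs to the origin recognition complex (orc), the licensing factors cdc6, cdt1 and gmnn, the mcm family, cdc7, cdc45 and GINS, the replicative polymerases and primase, pcna, replication factor C (rfc), replication protein A (rpa), lig1, fen1, the rnaseh2 subunits, or the enzymes rrm1, rrm2, rrm2b, tyms and dhfr. This gave 58 of 25911 genes, with 2 Ensembl genes named rrm2. All 58 passed the filter on low counts. The name pattern also caught 4 genes with other or additional roles, mcm8, mcm9, mcm3ap and cdc73.

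RNA was measured in whole larvae at 3 days postfertilization (dpf), on the AB background, from an incross of can4 heterozygotes. The paper's general husbandry methods name EkkWill fish as the source of fertilized eggs and give no strain for the can4 line. The homozygous can4-/- larvae carry a mutation in top2a, which encodes topoisomerase IIα, and WT larvae of the same crosses served as the comparison. Each genotype had 5 pools of 9 larvae, every larva typed singly, so a value is an average over larvae and over every tissue. Per the study, maternal top2a mRNA is present at low levels up to 3 dpf, so can4-/- embryos are expected to be only partly depleted of Top2a. The study also states that homozygotes have morphological defects and do not survive. In whole larvae, fewer cells of a type and less RNA per cell cannot be told apart.

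Before S phase, the origin recognition complex, Cdc6 and Cdt1 load the Mcm2 to Mcm7 helicase onto origins, and geminin blocks Cdt1 once licensing is over. Cdc7 kinase, Cdc45, GINS and Mcm10 then turn the helicase on, polymerase α with primase starts each strand, and polymerases δ and ε extend them on the PCNA clamp. Many of these genes are transcribed under E2F control around the start of S phase, and in a zebrafish larva they mark the tissues that still divide, such as the ciliary margin of the retina and the ventricular zones of the brain. Topoisomerase IIα itself untangles sister DNA during and after replication.

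Total counts ranged from 30098991 to 38106622 in can4-/- pools and from 29281449 to 45544046 in WT pools. Of 23039 genes tested with edgeR's quasi-likelihood test, 36.9% were lower and 36.3% were higher in can4-/- at a Benjamini-Hochberg adjusted p under 0.05, so 73.2% of all genes were called. The transcript of top2a had 675, 1358, 656, 635 and 688 normalized counts in can4-/- pools 1 to 5, against 9082, 8498, 8646, 8532 and 8498 in WT pools 1 to 5. Normalized counts here are raw counts rescaled to a common library size, with library totals corrected by TMM factors. The labels therefore match the targeted gene (log2 fold change -3.43, standard error 0.19, adjusted p = 1.44e-09). Pool 2 of can4-/- held more top2a than the other 4 mutant pools and is followed below. Markers of muscle, neurons, photoreceptors, heart, liver, pancreas, epidermis, red cells and lens were all detected, as whole larvae should give.

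Most of the replication genes were lower in can4-/- larvae, and by a moderate amount. Of the 58, 37 were lower (63.8%, where 36.9% of all genes were), 3 were higher (5.17%, where 36.3% of all genes were) and 18 did not pass. The median log2 fold change was -0.28, against 0.0027 over all genes tested, and the middle of the distribution lay between -0.43 and -0.089. Only 1 of the 58, the low-count gene mcm6l, was called higher by at least 2-fold (8.71% of all genes were), and none was called lower by at least 2-fold (11.9% of all genes were). In 29 genes all 5 can4-/- pools lay below all 5 WT pools (31.4% of all genes did so), and in 2 genes they lay above (29.4% of all genes did so, and 60.8% in either direction). Among genes of like abundance, those with a mean of 362 to 1520 normalized counts, 39.6% were lower and 38.9% higher. With library totals in place of TMM, which shifts all genes by a median of -0.17, 47 of the 58 were lower and 1 was higher, where 47.7% and 25.7% of all genes were. So some members that did not pass with TMM were called lower with library totals, and contrasts between called and uncalled subunits depend in part on scaling. Relative to the median of all genes, the median of the members was -0.28 under both scalings. Without can4-/- pool 2, 42 were lower, including all 37.

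**Figure D1:**
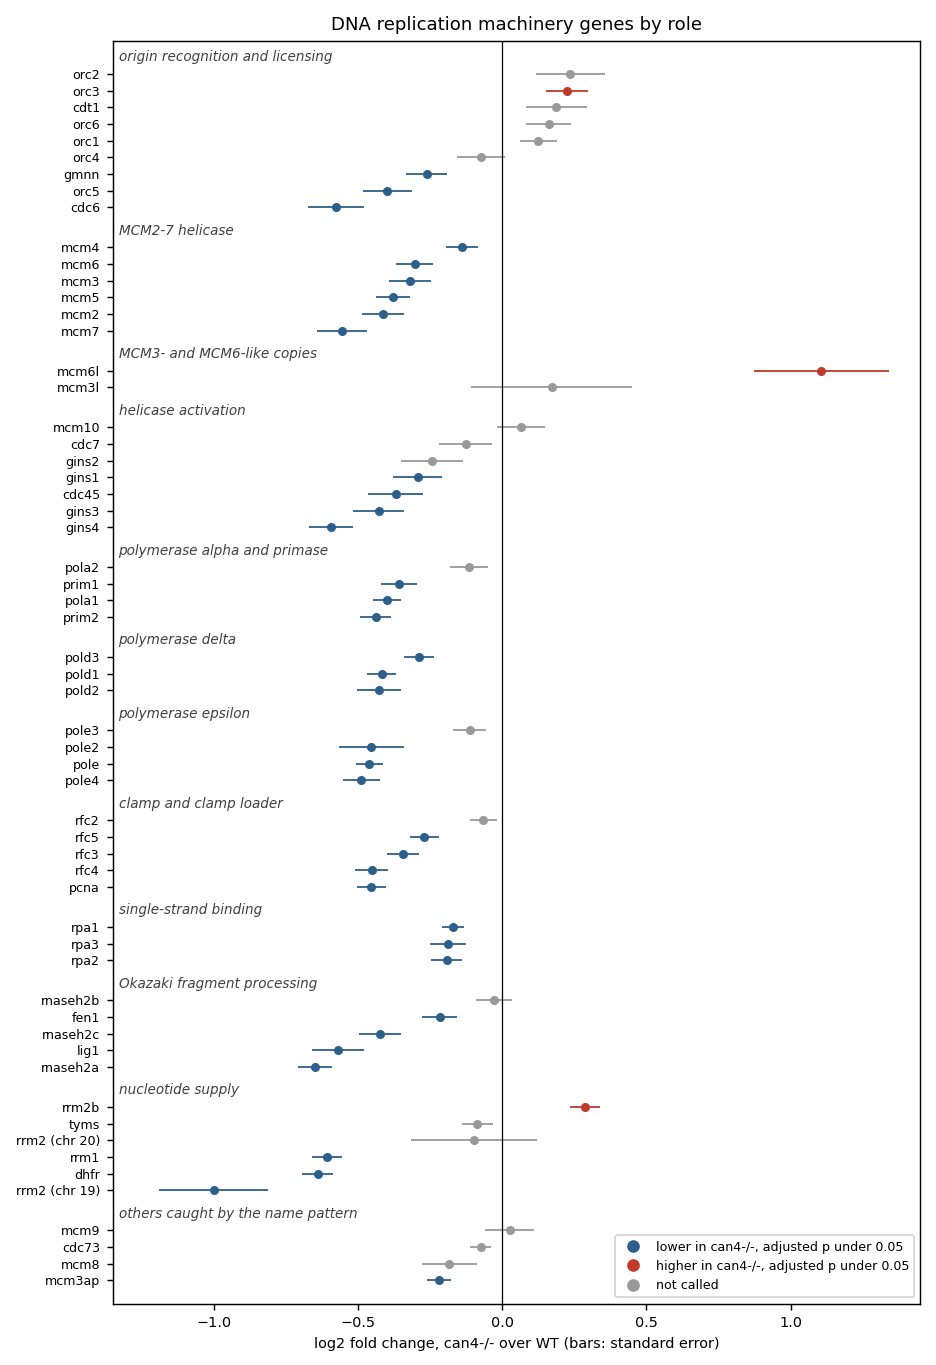
Log2 fold change of can4-/- over WT (x axis) for the 58 genes, grouped by role (y axis), with bars of 1 standard error from edgeR; blue is lower, red higher and grey not called at an adjusted p under 0.05. Most points lie between -0.65 and 0.25, and the 3 red points are orc3, rrm2b and mcm6l.

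Of the 9 genes of origin recognition and licensing, cdc6, orc5 and gmnn were lower, orc3 was higher and 5 did not pass. The 3 lower genes are a share near the 36.9% of all genes. The ATPase gene cdc6, which helps load the helicase, had 311, 339, 231, 349 and 285 normalized counts in can4-/- pools 1 to 5, against 478, 440, 459, 412 and 476 in WT pools 1 to 5. The pools of the genotypes did not overlap for cdc6 (log2 fold change -0.58, standard error 0.097, adjusted p = 0.000102). For orc5, an ATPase subunit of the origin recognition complex, the can4-/- pools ranged from 276 to 346 and the WT pools from 369 to 445 normalized counts.

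None of the other subunits of the origin recognition complex was called lower, although orc4 was with library totals (-0.25, adjusted p = 0.0192). The gene with the largest positive value in this group, orc2, had 127, 150, 147, 202 and 166 normalized counts in can4-/- pools, against 143, 126, 137, 147 and 120 in WT pools. Its groups overlapped and it did not pass (log2 fold change 0.24, standard error 0.12, adjusted p = 0.0893), although without can4-/- pool 1 it did (0.30, adjusted p = 0.0296). The subunit gene orc3 had 891, 772, 647, 769 and 722 normalized counts in can4-/- pools, against 642, 609, 679.8, 645 and 672 in WT pools. Only can4-/- pool 3 lay within the WT range. The call for orc3, which rose to 760 ± 88.8 in can4-/-, against 650 ± 28.0 in WT (SD over 5 pools per genotype, edgeR adjusted p = 0.0123), was lost with library totals (0.050, adjusted p = 0.549). For orc1, the large ATPase subunit, and orc6 the values were 0.13 and 0.16 on the log2 scale. Neither passed. Without can4-/- pool 5 orc1 was called higher (0.17, adjusted p = 0.0154), and without can4-/- pool 3 orc6 was (0.23, adjusted p = 0.00486), while both turned negative with library totals (-0.049 and -0.014). The value of orc4 was -0.072 and did not pass either.

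The transcript ratio of gmnn to cdt1 was lower in can4-/- larvae, and the proteins geminin and Cdt1 were not measured here. The inhibitor gene gmnn had 504, 424, 400.0, 425 and 383 normalized counts in can4-/- pools, against 526, 477, 514, 528 and 510 in WT pools. Only can4-/- pool 1 reached into the WT range, and gmnn was lower (log2 fold change -0.26, standard error 0.071, adjusted p = 0.00439). For cdt1 the counts were 372, 435, 342, 431 and 343 in can4-/- pools, against 419, 293, 348, 326 and 300.2 in WT pools. These overlapped and cdt1 did not pass (0.19, standard error 0.11, adjusted p = 0.124), but without WT pool 1 it did (0.28, adjusted p = 0.0158). The log2 ratio of gmnn to cdt1 was 0.15 ± 0.19 in can4-/- and 0.61 ± 0.17 in WT (SD, n = 5), a difference of -0.46 (two-sided exact permutation test, p = 0.0159, adjusted p = 0.0238 over 3 ratios). The annotated span of gmnn overlaps 5 other genes and that of cdt1 overlaps aprt, so these counts may include reads of neighbors. The ratio of orc1 to orc2 was 1.85 ± 0.30 in can4-/- and 1.95 ± 0.13 in WT, which the same exact permutation test did not separate (p = 0.452).

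**Figure D2:**
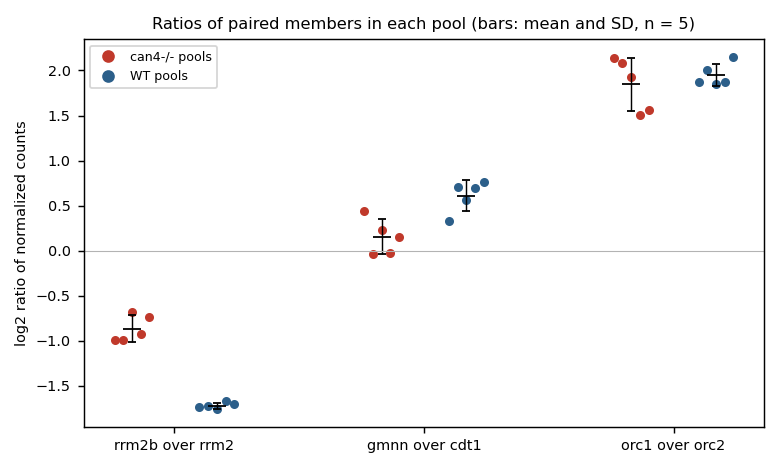
Log2 ratio of normalized counts (y axis) for 3 pairs of members (x axis), with 1 point per pool, can4-/- in red left of WT in blue, and bars for the mean and SD of 5 pools. The ratio of rrm2b to rrm2 was above -1.0 in every can4-/- pool and below -1.6 in every WT pool, while the pools overlapped for the other 2 ratios.

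All 6 genes of the replicative helicase, mcm2 to mcm7, were lower in can4-/- larvae, where 36.9% of all genes were. The largest decrease was in mcm7, which had 550, 756, 597, 633 and 529 normalized counts in can4-/- pools, against 1009, 874, 887, 901 and 839 in WT pools. No can4-/- pool reached the WT range (log2 fold change -0.55, standard error 0.087, adjusted p = 5.30e-05). Its annotated span holds the microRNA genes mir-25, mir-93 and mir-19d on the same strand. For mcm5 the counts were 2555, 2884, 2361, 2768 and 2512 in can4-/- pools, against 3675, 3217, 3515, 3424 and 3184 in WT pools (-0.38, standard error 0.059, adjusted p = 4.61e-05). The genes mcm2, mcm3 and mcm6 stood at -0.41, -0.32 and -0.30 on the log2 scale, and mcm2 and mcm3 had no overlap between genotypes.

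The smallest decrease of the 6 was that of mcm4, with 2391, 2797, 2387, 2407 and 2296 normalized counts in can4-/- pools, against 2756, 2679, 2853, 2743 and 2486 in WT pools. Here can4-/- pool 2 lay among the WT pools (log2 fold change -0.14, standard error 0.056, adjusted p = 0.0368). This call was lost in 8 of the 10 fits that leave out a pool, with adjusted p up to 0.0995, and without can4-/- pool 2 the value was -0.19 (adjusted p = 0.00163). The difference between mcm4 and mcm7 was not tested.

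The genes mcm3l and mcm6l, copies related to mcm3 and mcm6, had few counts and did not fall. In Xenopus the corresponding mcm3 and mcm6 copies are maternal and zygotic forms. The counts of mcm6l were 21.2, 23.1, 20.4, 31.1 and 29.6 in can4-/- pools, against 12.7, 8.76, 10.9, 9.23 and 16.9 in WT pools. The pools did not overlap (log2 fold change 1.11, standard error 0.23, adjusted p = 0.000691), and it remained higher with library totals. The gene mcm3l had 15, 5.78, 15.1, 13.9 and 10.7 normalized counts in can4-/- pools, against 11, 11.7, 11.6, 8.2 and 10.1 in WT pools, which overlapped, and it did not pass (adjusted p = 0.596). Whether these copies share reads with mcm3 and mcm6 was not tested.

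**Figure D3:**
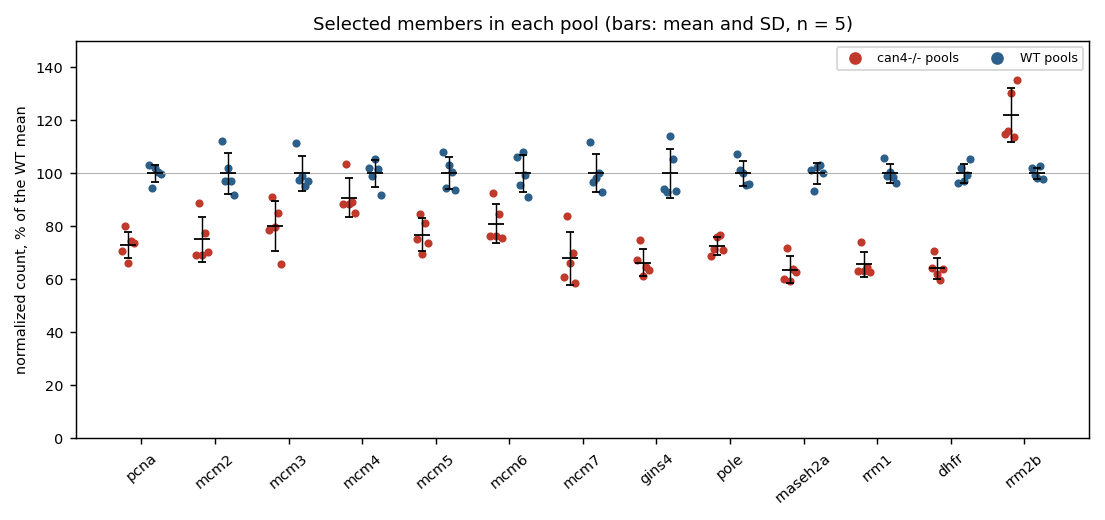
Normalized counts of 13 members in each pool (y axis, percent of the WT mean, from 0), can4-/- in red left of WT in blue, with bars for the mean and SD of 5 pools. The can4-/- means lie from 63.7% (rnaseh2a) to 90.8% (mcm4) for 12 genes and at 122% for rrm2b, and can4-/- pool 2, the second red point, is often the highest of its group.

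The genes that switch the helicase on fell in part. Of 7, gins4, gins3, cdc45 and gins1 were lower, where 36.9% of all genes were, and gins2, cdc7 and mcm10 did not pass. GINS is a complex of 4 subunits that joins Cdc45 and the Mcm ring into the active helicase. Its subunit gene gins4 had 324, 358, 295, 310 and 304 normalized counts in can4-/- pools, against 452, 447, 547, 506 and 449 in WT pools. The groups were well apart (log2 fold change -0.59, standard error 0.077, adjusted p = 8.73e-06). The values were -0.43 for gins3 and -0.29 for gins1, while gins2 was at -0.24 and just missed the threshold (adjusted p = 0.0567). It passed with limma voom and in 3 of the 10 fits without a pool. For cdc45 the can4-/- pools ranged from 233.7 to 328 and the WT pools from 320.5 to 400.5 normalized counts, a narrow overlap (-0.37, adjusted p = 0.00285). The kinase gene cdc7 was at -0.13 (adjusted p = 0.227). The gene mcm10 had 252, 257, 249, 308 and 274 normalized counts in can4-/- pools, against 279, 238, 277, 248 and 236 in WT pools. Its groups overlapped throughout (0.065, adjusted p = 0.488), and its value was -0.11 with library totals.

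Genes of all 3 replicative polymerases were lower. Of the 11 subunits of polymerases α with primase, δ and ε, 9 were lower, without overlap between genotypes, and pola2 and pole3 did not pass. Over all genes, 36.9% were called lower and 31.4% had every can4-/- pool below every WT pool. For prim2, the large primase subunit, the counts were 574, 554, 504, 548 and 572 in can4-/- pools, against 775, 686, 751, 789 and 727 in WT pools. All can4-/- pools were below all WT pools (log2 fold change -0.44, standard error 0.054, adjusted p = 5.53e-06). The catalytic subunit pola1 was at -0.40 and the small primase subunit prim1 at -0.36. In contrast pola2, the regulatory subunit, had 679, 766, 586, 703 and 721 normalized counts in can4-/- pools, against 757, 734, 792, 757 and 697 in WT pools. Its groups overlapped (-0.11, standard error 0.066, adjusted p = 0.137), and it passed only without can4-/- pool 2 (adjusted p = 0.0477) and with library totals.

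Polymerase δ copies the lagging strand and polymerase ε the leading strand, and their catalytic subunits were both lower. The gene pold1 had 1292, 1481, 1238, 1395 and 1363 normalized counts in can4-/- pools, against 1870, 1798, 1826, 1816 and 1737 in WT pools (log2 fold change -0.42, standard error 0.049, adjusted p = 3.18e-06). For pole the counts were 787, 818, 869, 878 and 812 in can4-/- pools, against 1228, 1160, 1146, 1096 and 1099 in WT pools (-0.46, standard error 0.048, adjusted p = 9.30e-07). Both genes kept the genotypes clearly apart. Among the smaller subunits of polymerase δ, pold2 had 249, 321, 261, 249 and 264 normalized counts in can4-/- pools, against 375, 362, 363, 372 and 337 in WT pools (-0.43, standard error 0.077, adjusted p = 0.000185). The gene pold3 had 915, 893, 804, 949.9 and 915 normalized counts in can4-/- pools, against 1112, 1093, 1056, 1158 and 1049 in WT pools (-0.29, standard error 0.051, adjusted p = 0.000145). Neither had any overlap between the genotypes, and pold3 was closer to WT. For polymerase ε, pole4 had 297, 282, 306, 289 and 343 normalized counts in can4-/- pools, against 409, 428, 429, 445 and 417 in WT pools (-0.49, standard error 0.064, adjusted p = 9.00e-06), and pole2 was at -0.45. For pole3, the histone-fold partner of pole4, the counts were 725, 809, 688, 731 and 709 in can4-/- pools, against 870, 799, 770, 773 and 745 in WT pools (-0.11, adjusted p = 0.0908), and it passed without can4-/- pool 2 (adjusted p = 0.0236). The difference between pole3 and pole4 was not tested. The spans of pold2 and pole2 overlap sf3a1 and ppp1r21 on the same strand, which leaves their values uncertain.

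The sliding clamp gene pcna was among the members with the clearest separation. It lies on chromosome 10 of GRCz11 from 40821804 to 40826657. Its counts were 6903, 7801, 6454, 7252 and 7169 in can4-/- pools, against 10059, 9225, 9927, 9804 and 9728 in WT pools. All can4-/- pools were well below WT, at 73.0% of the WT mean (log2 fold change -0.45, standard error 0.050, adjusted p = 1.70e-06). Of the 4 clamp loader genes found, rfc4, rfc3 and rfc5 were lower at -0.45, -0.34 and -0.27, where 36.9% of all genes were. The remaining subunit, rfc2, had 696, 748, 720.4, 749 and 703 normalized counts in can4-/- pools, against 712, 735, 786, 800 and 754 in WT pools (-0.066, adjusted p = 0.229), so the groups overlapped.

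The 3 genes of replication protein A, which coats single-stranded DNA in replication and in repair, were lower by small and similar amounts. Their log2 fold changes were -0.17 for rpa1, -0.19 for rpa2 and -0.19 for rpa3. All 3 were called lower, where 36.9% of all genes were. For rpa1 the counts were 3128, 3262, 3010, 3186 and 3061 in can4-/- pools, against 3612, 3503, 3601, 3585 and 3319 in WT pools. The groups did not overlap, although the mutant mean was still 88.8% of the WT mean (standard error 0.039, adjusted p = 0.00121). The gene rpa2 had 984, 1061, 952, 1059 and 987 normalized counts in can4-/- pools, against 1253, 1067, 1098, 1168 and 1180 in WT pools. The call for rpa3 was lost without WT pool 3 (adjusted p = 0.0526).

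The genes that finish Okazaki fragments included some of the larger decreases. The catalytic subunit of ribonuclease H2, rnaseh2a, which acts on RNA in RNA-DNA hybrids, had 440, 526, 433, 467 and 460 normalized counts in can4-/- pools, against 739, 682, 747, 755 and 731 in WT pools. Every can4-/- pool was far below every WT pool (log2 fold change -0.65, standard error 0.059, adjusted p = 2.41e-07). The subunit rnaseh2c was also lower (-0.42), whereas rnaseh2b had 887, 941, 863, 1037 and 1000 normalized counts in can4-/- pools, against 961, 861, 966, 1043 and 986 in WT pools, with full overlap (-0.027, adjusted p = 0.711). The DNA ligase gene lig1, which seals the fragments, had 624.9, 873, 757, 725 and 642 normalized counts in can4-/- pools, against 1232, 1102, 1062, 948 and 1031 in WT pools (-0.57, standard error 0.090, adjusted p = 5.92e-05). The flap endonuclease gene fen1 was at -0.22 (adjusted p = 0.00571), with can4-/- pool 2 inside the WT range.

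Of the 6 genes of nucleotide supply 3 were lower, 1 was higher and 2 did not pass. Over all genes, 36.9% were lower and 36.3% higher. Ribonucleotide reductase makes deoxyribonucleotides and is built from the large subunit Rrm1 and a small subunit, either Rrm2, made in S phase, or Rrm2b, which p53 induces in mammals. The gene rrm1 had 2931, 3445, 2939, 3010 and 2913 normalized counts in can4-/- pools, against 4908, 4597, 4658, 4569 and 4479 in WT pools. These are 65.7% of WT, with no overlap (log2 fold change -0.61, standard error 0.051, adjusted p = 1.02e-07). For dhfr, which regenerates the folate that thymidylate synthesis uses, the counts were 565, 623, 546, 526 and 563 in can4-/- pools, against 849, 897, 856, 875 and 928 in WT pools (-0.64, standard error 0.053, adjusted p = 8.33e-08). The thymidylate synthase gene tyms, which uses that folate, was at -0.086 and did not pass (adjusted p = 0.162), with 746 to 861 normalized counts in can4-/- pools and 777 to 880 in WT pools. It passed without can4-/- pool 2 (adjusted p = 0.0492) and with library totals (-0.26).

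The 2 genes named rrm2 were read singly and as a sum. The gene on chromosome 20, from 29492469 to 29499426, had 1949, 2028, 1686, 1945 and 876 normalized counts in can4-/- pools, against 1484, 2050, 1881, 2495 and 1175 in WT pools. The gene on chromosome 19, from 47564890 to 47571808, had 1215, 1152, 1205, 1039 and 2230 in can4-/- pools, against 3213, 2489, 2714, 2020 and 3220 in WT pools. In can4-/- larvae, pool 5 had the fewest counts at the chromosome 20 gene and the most at the chromosome 19 gene, while pools 1 to 4 lay close together at each gene. In WT larvae, pool 5 was likewise lowest at chromosome 20 and highest at chromosome 19, and pool 4 the reverse. Taken alone, the chromosome 19 gene was called lower (log2 fold change -0.9996, standard error 0.19, adjusted p = 0.000280) and the chromosome 20 gene was not called (-0.098, standard error 0.22, adjusted p = 0.698). Their groups overlapped at both.

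Summed, rrm2 had 3163, 3179, 2891, 2984 and 3106 normalized counts in can4-/- pools, against 4697, 4538, 4595, 4515 and 4395 in WT pools. The spread fell to 4.04% of the mean in can4-/- and 2.43% in WT, against 28.1% in each genotype for the chromosome 20 gene and 35.6% and 18.6% for the chromosome 19 gene. With the 2 rows added before the fit, a step chosen after the data were seen, the log2 fold change was -0.57 (standard error 0.039, adjusted p = 1.47e-08 from edgeR), close to the -0.61 of rrm1. The share from chromosome 20 was 58.3% to 65.2% in can4-/- pools 1 to 4 and 28.2% in can4-/- pool 5, and 26.7% to 55.3% in WT pools. Whether the copies share reads was not tested.

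**Figure D4:**
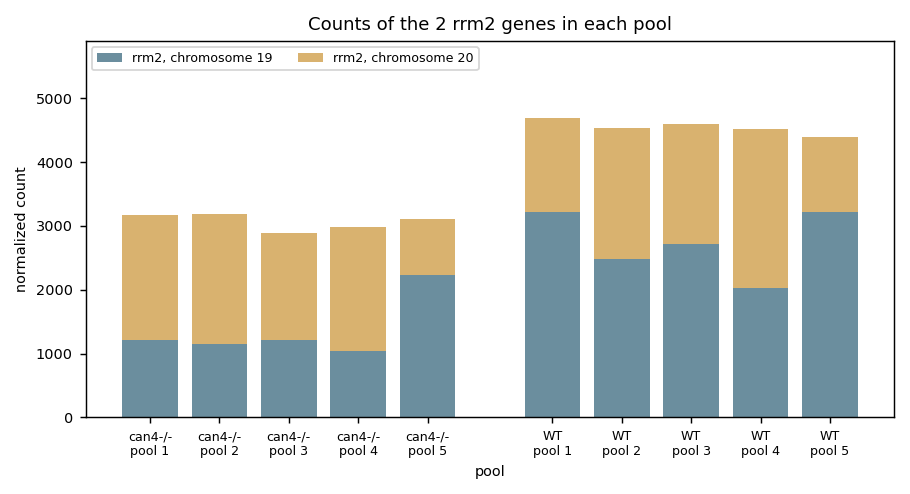
Normalized counts (y axis, from 0) of the rrm2 genes on chromosome 19 (blue-grey) and chromosome 20 (ochre), stacked for each pool (x axis), with the 5 can4-/- pools left of the 5 WT pools. The stacked heights are 2891 to 3179 in can4-/- and 4395 to 4697 in WT, while the parts vary widely within a genotype.

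The p53-inducible form went the other way. The gene rrm2b had 1586, 1601, 1800, 1567 and 1868 normalized counts in can4-/- pools, against 1406, 1369, 1358, 1416 and 1352 in WT pools. All can4-/- pools lay above WT (log2 fold change 0.29, standard error 0.053, adjusted p = 0.000236), but with library totals the value was 0.11 and the call was lost (adjusted p = 0.0764). The ratio within a pool does not depend on scaling. The log2 ratio of rrm2b over rrm2, summed over both genes, was -0.87 ± 0.15 in can4-/- and -1.72 ± 0.034 in WT (SD, n = 5), a difference of 0.85 (two-sided exact permutation test, p = 0.00794, the smallest that 5 pools against 5 allow; adjusted p = 0.0238 over 3 ratios). Against the chromosome 20 gene alone the difference was 0.40 and did not pass the exact test (p = 0.278). The ratio was chosen without stating whether the 2 rrm2 genes were to be summed, so its p-value depends on that choice.

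Of the 4 genes that the name pattern catches beside the fork genes, 1 was called, where 73.2% of all genes were. The genes mcm8 and mcm9, helicases of homologous recombination, were at -0.18 and 0.027, and cdc73, a subunit of the Paf1 transcription complex, was at -0.073. None of these passed, but mcm8 did without can4-/- pool 2 (-0.25, adjusted p = 0.0225), and mcm8 and cdc73 did with library totals (-0.36 and -0.25). The gene mcm9 had 189, 200.4, 224, 189 and 223 normalized counts in can4-/- pools, against 186, 216, 201, 217 and 186 in WT pools, with full overlap. Only mcm3ap, an mRNA export factor, was lower (log2 fold change -0.22, standard error 0.042, adjusted p = 0.000323). It had 1465, 1615, 1453, 1480 and 1421 normalized counts in can4-/- pools, against 1759, 1772, 1715, 1708 and 1690 in WT pools, without overlap, although its span overlaps lss on the same strand. Without the 4 genes, 36 of 54 were lower and 3 higher, with a median of -0.30.

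Pool 2 of can4-/- was the highest mutant pool for 26 of the 37 lower members (70.3%), and for 37.6% of all genes called lower. On the leading principal component over all genes (84.0% of the variance), it lay nearer WT (-57.3) than the other can4-/- pools (-82.2 to -72.5), so its position is not confined to the replication genes. For top2a it stood 8.69% of the way from the mean of the other 4 can4-/- pools to the WT mean. For the 37 members the median of that distance was 39.3%, with quartiles of 27.1% and 58.5%. The distance is a share of the gap between genotypes, which was far wider for top2a than for any member. So the 2 values are not directly comparable, and no such value is given here for all genes called lower. Over all 58 members can4-/- pool 2 was the highest can4-/- pool for 34 and the lowest for 2. In WT, pool 1 was highest for 23 members and pool 5 lowest for 25.

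The genes most like pcna over the pools were mostly not members, which are only 58 of the 23039 genes tested. After the mean of each genotype was removed, the log2 normalized level of 17821 genes was correlated with that of pcna over the 10 pools, as a description. The 10 highest had r of 0.924 to 0.948, led by smarcad1b, rbm8a and h3f3a, and held 1 member, rnaseh2a (r = 0.926). The next members were pold1 (rank 20, r = 0.905), rnaseh2c (rank 40, r = 0.885), mcm5 (rank 66) and pola2 (rank 75). Most members ranked at 1463 (tyms, r = 0.586) or better, and the lowest was mcm9 (rank 15054, r = -0.423). With only 10 pools, which differ in depth, these ranks are loose.

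Replication genes outside the name pattern were mostly lower too. This list and the comparison lists below were chosen with earlier results of these data known, so they are not independent support. Of 33 other fork and chromatin replication genes, 24 were lower, 1 was higher and 8 did not pass, with a median log2 fold change of -0.28. Over all genes, 36.9% were lower and 36.3% higher. The maintenance methyltransferase gene dnmt1 had the largest decrease (-0.67, standard error 0.059), followed by pclaf, which encodes a PCNA-binding factor (-0.60, standard error 0.12), and rnaseh1, a nuclease of RNA-DNA hybrids, was the one higher gene (0.32, standard error 0.053). DNA polymerases outside the fork were mixed, with 7 of 14 lower and 2 higher. Among them the repriming enzyme gene primpol was at -0.77 and the repair polymerase gene polb at -0.52, while polh, a translesion polymerase, was at 0.20, a call lost without can4-/- pool 2 (adjusted p = 0.0501), without WT pool 3 (adjusted p = 0.0571) and with library totals (adjusted p = 0.740). The other higher gene, poln, had the larger increase (1.14, standard error 0.14, edgeR adjusted p = 3.69e-06). Its counts were low, with means of 93.3 in can4-/- and 42.2 in WT, and its pools did not overlap.

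Other genes of nucleotide supply moved in both directions. Of 17, 4 were lower, 10 were higher and 3 did not pass, with a median of 0.18. Over all genes, 36.9% were lower and 36.3% higher. The deoxycytidine kinase gene dck and the dUTPase gene dut had the largest decreases, at -1.06 (standard error 0.14) and -0.89 (standard error 0.11). The purine synthesis genes impdh2 and paics had the largest increases, at 1.01 (standard error 0.046) and 0.98 (standard error 0.066). For paics the mean was 12196 normalized counts in can4-/-, against 6179 in WT. With library totals 6 of the 17 were higher, where 25.7% of all genes were.

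The regulators of S phase entry and of the replication checkpoint were called lower and higher at about the shares of all genes (36.9% and 36.3%). Of 22 G1/S regulators, 7 were lower and 9 higher, with a median of -0.0043. The E2F partner gene tfdp2 (-0.92, standard error 0.100) and the cyclin gene ccna2 (-0.83, standard error 0.047) had the largest decreases. The largest increases were in e2f5 (1.29, standard error 0.076) and rbl2 (1.11, standard error 0.073), which encode a repressive E2F and a pocket protein. With library totals 11 of these genes were lower, where 47.7% of all genes were. Of 11 checkpoint genes 4 were lower, led by the clamp gene rad1 (-0.48) and the phosphatase gene cdc25b (-0.46), and 4 were higher, led by the kinase genes atr (0.40) and chek2 (0.40).

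Genes of G2 and mitosis fell in nearly every case. Of 41, 39 were lower, none was higher and 2 did not pass, with a median of -0.64. Over all genes, 36.9% were lower and 36.3% higher. Every fitted value of the 41 was negative in edgeR, with the highest at -0.030. The largest decreases were in the kinetochore gene cenpf (-1.32, standard error 0.074), with 3003 normalized counts on average in can4-/- and 7515 in WT, and in the spindle gene nusap1 (-1.26, standard error 0.073). The p53 targets were on the other side, with 19 of 22 higher, 1 lower and a median of 1.16. The inhibitor gene cdkn1a, which blocks S phase kinases and binds PCNA, was at 3.15 (standard error 0.29) and rps27l, which encodes a ribosomal protein form, at 2.698 (standard error 0.11), while cdkn1d, a related inhibitor, was at -0.61 (standard error 0.11). The medians of these lists were not tested against that of the members.

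**Figure D5:**
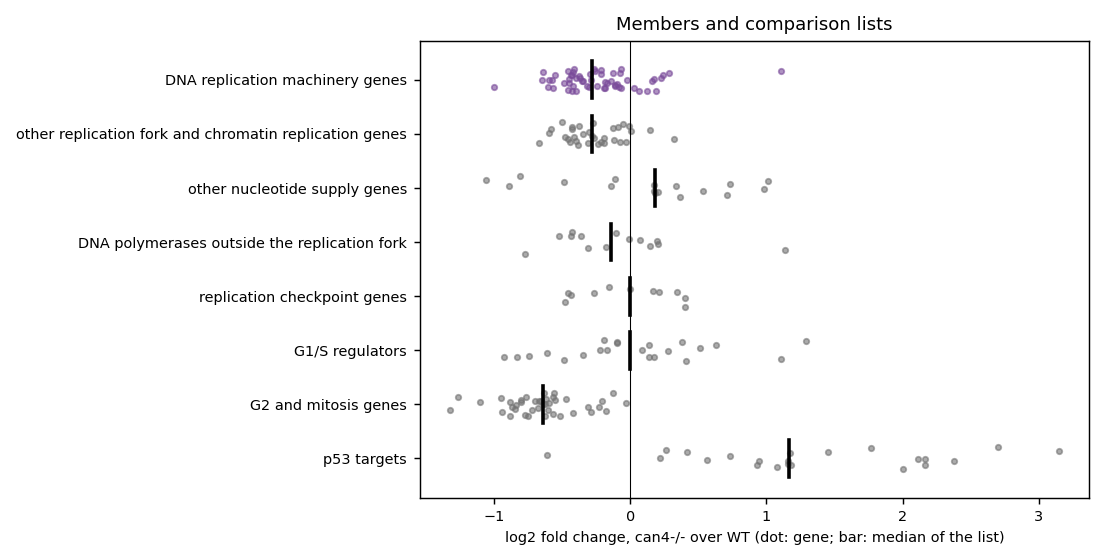
Log2 fold change of can4-/- over WT (x axis) for the 58 members, in purple, and for 7 comparison lists, in grey (y axis), with 1 point per gene tested and a bar at each median. The median is -0.28 for the members and for the other replication genes, -0.64 for G2 and mitosis genes and 1.16 for p53 targets.

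Markers of most tissues examined also differed between the genotypes, as did 73.2% of all genes tested (36.9% lower and 36.3% higher). Of 11 neural progenitor markers, 8 were lower and 2 higher, with summed normalized counts of 8395 to 10089 in can4-/- pools and 14737 to 16216 in WT pools, and none was at 0. Neuron markers (4 of 4 lower) summed to 14957 to 17132 in can4-/- and 31510 to 33399 in WT, and photoreceptor markers (4 of 4 lower) to 226 to 541 in can4-/- and 9634 to 14856 in WT. Of 5 blood progenitor markers 2 were lower and 2 higher, with sums of 1082 to 1315 in can4-/- and 2435 to 2563 in WT. Most of the WT sum came from the 2 lower genes, tal1 and myb (WT means of 1116 and 1157). The log2 fold change was 1.77 for runx1 and 0.65 for spi1b, both higher, and gata1a was not called. Muscle markers (4 of 4 higher) summed to 366300 to 431580 in can4-/- and 222920 to 262720 in WT. Of the other marker lists, exocrine pancreas had 3 of 3 lower and liver had 2 lower and 1 higher. Heart (3 of 3), lens (3 of 3), macrophage (4 of 4) and germ line (2 of 2 tested) markers were higher. Epidermis had 2 higher and 1 lower, and red cells had 1 higher and 2 not called. The part of these shifts in the values of the replication genes was not tested.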

How the data were processed

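Whole-larva RNA of 5 can4-/- and 5 WT pools (9 larvae each, 3 dpf) was sequenced from stranded, rRNA-depleted libraries. The authors aligned reads with STAR (version 2.7.0f, build GRCz11, per the submitters' processing notes), and the deposited raw counts per gene are whole numbers, not normalized. The counting program and strand rule were not given in the sources used here. Overlapping genes (21 of 58 members, 7 on the same strand) and close copies may share reads. The deposit's DESeq2 1.24.0 comparison, size factors, normalized and rlog values were not used. Gene names and positions came from the deposited Ensembl 96 table.

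In R 4.3.3, genes were kept by filterByExpr (minimum count 10, minimum total 15), scaled by TMM and tested in edgeR 4.0.16 by quasi-likelihood with genotype as the only term. Benjamini-Hochberg adjustment covered all 23039 genes. The standard error is the log2 fold change divided by the square root of F. Ratios used normalized counts plus 0.5 and two-sided exact permutation tests over the 252 regroupings of pools. The fit was tested on simulated data. Members and lists were chosen with earlier results of these data known. Named list genes are up to 2 increases and 2 decreases per list, at an adjusted p under 0.05 and a mean of at least 100 normalized counts. The gene poln, with a mean of 67.8, is named as well. Alternatives were DESeq2 1.42.0, limma 3.58.1 voom, RLE, library totals, no filter, at least 50 counts in every pool of a genotype, a replicate block and leaving out each pool. Promoter and protein sequences were not used here. Replicates come from separate larvae. Low counts limit the precision of genes such as mcm3l and mcm6l.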

Additional observations from a re-analysis of the deposited data

Results flagged for a closer look

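Pools that stood apart from the other 4 of their genotype were sought for every member, for top2a and for the 3 ratios, in 124 groups of 5 pools, of which chance alone marks about 1 in 20. There were 8. In can4-/- pool 2, top2a was at 1358 normalized counts (the others at 635 to 688), rrm1 at 3445 (2913 to 3010), mcm4 at 2796 (2296 to 2407), prim1 at 628.3 (509.7 to 543.6) and pold2 at 320.9 (248.7 to 264.1), each above the other can4-/- pools. In can4-/- pool 5, the rrm2 gene of chromosome 19 was at 2230 (1039 to 1215). In WT pool 1, mcm3 was at 2568 (2191 to 2279) and top2a at 9082 (8498 to 8646). No cause of these differences was tested.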

How the results depend on the processing

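DESeq2, voom, RLE, no filter and the stricter filter gave 37 or 38 members lower, 2 or 3 higher and medians of -0.28 to -0.27. The stricter filter left out mcm3l and mcm6l. Leaving out each pool gave 35 to 42 lower, 3 to 4 higher and medians of -0.31 to -0.24. The replicate numbers do not pair the pools (correlations of -0.022 to 0.033, and 0 of 5 can4-/- pools closest to their own number), and the replicate block gave 37 lower, 3 higher and a median of -0.28, changing no call among the 82 genes followed. Under the block, higher genes numbered 9 in other nucleotide supply (10 without it), 5 among checkpoint genes (4) and 20 among p53 targets (19). Library totals gave 47 lower, 1 higher and a median of -0.45. They turned mcm9 to -0.15, mcm3l to -0.0019, orc1 to -0.049, mcm10 to -0.11 and orc6 to -0.014, none of them called. With them, higher genes numbered 6 in other nucleotide supply and 1 in the other polymerases, and 11 G1/S regulators were lower. Leaving out a pool gave 1 to 2 higher genes among other fork genes and 1 to 3 among the other polymerases. It turned rnaseh2b (range -0.062 to 0.0058) to 0.0058 (without can4-/- pool 3) and 0.0039 (without WT pool 4), mcm9 (range -0.0058 to 0.056) to -0.0058 (without can4-/- pool 3) and -0.0033 (without can4-/- pool 5), and rrm2 of chromosome 20 (range -0.21 to 0.066) to 0.066 (without can4-/- pool 5) and 0.043 (without WT pool 4), none called. The difference of rrm2b to rrm2 was 0.81 to 0.89 without a pool and 0.40 against the chromosome 20 gene alone. The alternatives for the comparison lists, for single rrm2 genes and without mcm8, mcm9, mcm3ap and cdc73 were chosen after seeing the data. Of 82 genes followed, 59 kept call and direction in every setting. The causes of these changes were not tested. Low counts limit mcm3l and mcm6l.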
